A study of Mus musculus with 2 samples.

Results

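The replication machinery considered here comprised 47 genes, chosen by name as the subunits and enzymes that license origins, unwind DNA, synthesise and join the strands, and supply deoxynucleotides. All 47 were found by gene identifier in both gene tables, among 43346 mouse genes listed there and 21461 nuclear protein-coding genes with a name in the annotation. The assay was total RNA sequencing of forebrain from B6NCrl mice at embryonic day 12.5. The libraries form 1 group of 2 biological replicates, each a pool of both sexes, with forebrains of 120 embryos in replicate 1 and 68 in replicate 2. Each library was made from 10 ng of RNA over 200 bases in size, extracted with the mirVana kit, with ERCC spike-ins. The labels give no treatment, mutation or comparison tissue. The labels give both pools the same donor identifier, so the spread between the replicates covers these pools only, and each pool holds whatever cell types the dissected forebrain contains.

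Before S phase, the origin recognition complex (ORC) with Cdc6 and Cdt1 loads double rings of the MCM2-7 helicase onto DNA, and geminin blocks Cdt1 once S phase has begun. Cdc45 and the GINS complex then turn the rings into active helicases, and polymerase alpha-primase lays down primers. Polymerases epsilon and delta extend the leading and lagging strands together with the sliding clamp PCNA, which the RFC complex loads. In the embryonic forebrain, DNA replication takes place mainly in the progenitors of the ventricular and subventricular zones, while newborn neurons leave the cell cycle.

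Promoter sequences of 5 members are shown because they hold, or lack, letters linked to S phase transcription. Many replication genes are known targets of the E2F factors, which bind TTTNNCGC-like letters, and of NF-Y, which binds CCAAT. Sequences are from RefSeq on build GRCm38.p6 and run 5′ to 3′ on the strand of the gene, from 150 bases before the start to 30 bases after it. Capitals mark TTTNNCGC or CCAAT on either strand, so that CCAAT on the other strand reads ATTGG. The 5 were chosen after their matches were known. Mcm6 held the most E2F letters of those shown, Mcm3 and Orc1 held 1 match each, and Rrm2 and Pcna, the 2 most abundant members, held none. The windows are Mcm6 at chr1:128359676-128359855 (minus strand), Mcm3 at chr1:20820283-20820462 (minus), Orc1 at chr4:108579304-108579483 (plus), Rrm2 at chr12:24708104-24708283 (plus) and Pcna at chr2:132253151-132253330 (minus).
Mcm6: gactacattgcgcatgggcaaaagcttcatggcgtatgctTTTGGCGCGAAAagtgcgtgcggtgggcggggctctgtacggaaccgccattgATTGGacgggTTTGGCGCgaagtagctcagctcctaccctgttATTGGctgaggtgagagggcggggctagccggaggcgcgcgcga
Mcm3: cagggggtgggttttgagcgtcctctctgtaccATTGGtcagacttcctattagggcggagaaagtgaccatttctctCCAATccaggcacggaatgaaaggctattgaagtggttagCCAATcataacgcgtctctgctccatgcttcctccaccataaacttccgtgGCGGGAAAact
Orc1: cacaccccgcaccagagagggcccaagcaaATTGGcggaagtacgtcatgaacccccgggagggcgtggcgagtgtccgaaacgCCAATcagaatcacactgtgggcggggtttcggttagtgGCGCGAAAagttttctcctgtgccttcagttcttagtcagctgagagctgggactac
Rrm2: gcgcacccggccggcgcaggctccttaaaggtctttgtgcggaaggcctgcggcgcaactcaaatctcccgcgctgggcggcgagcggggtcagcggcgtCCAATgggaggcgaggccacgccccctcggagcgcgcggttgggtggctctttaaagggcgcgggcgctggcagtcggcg
Pcna: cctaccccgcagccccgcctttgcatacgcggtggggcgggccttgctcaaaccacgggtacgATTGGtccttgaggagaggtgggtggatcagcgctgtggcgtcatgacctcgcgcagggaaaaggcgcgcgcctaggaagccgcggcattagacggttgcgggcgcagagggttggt

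In Mcm6 the E2F letters began 110, 106 and 47 bases before the start. The matches at 110 and 106 overlap on opposite strands, and the run read TTTGGCGCGAAA. The letters began 27 bases before the start in Orc1 and 19 bases after it in Mcm3. The CCAAT letters began 50 bases before the start in Rrm2 and 87 in Pcna.

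Over windows of 250 bases before to 50 bases after the start, 39 of the 47 members had a sequence. The E2F letters occurred in 17 of them (43.6%), against 9.93% of 10082 detected protein-coding genes with a window. CCAAT occurred in 24 members (61.5%), against 43.8% of the detected genes. TTTGAA, the core of the cell cycle homology region (CHR) bound by the MuvB complex at genes of G2 and mitosis, occurred in 5 members (12.8%), against 13.8% of the detected genes. Some genes have several windows, and counted by window the E2F letters were in 37.5% of 48 member windows, 8.17% of 13003 windows of detected genes and 5.17% of all windows. Members did not have a higher content of G and C, which averaged 58.9% in their windows and 60.9% in those of the detected genes. By role the E2F letters were in 8 of 13 licensing genes, 1 of 3 helicase activation genes, 5 of 10 polymerase and primase genes, 2 of 10 genes of the clamp, its loader, RPA and strand joining, and 1 of 3 nucleotide supply genes. The letters were present and absent at both ends of the range of levels, since Mcm7 (mean 260.6 TPM) and Orc1 (10.1 TPM) had them while Rrm2 (436.6 TPM) and Pold4 (8.20 TPM) did not. A match describes letters in the window, and binding was not measured.

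**Figure D1:**
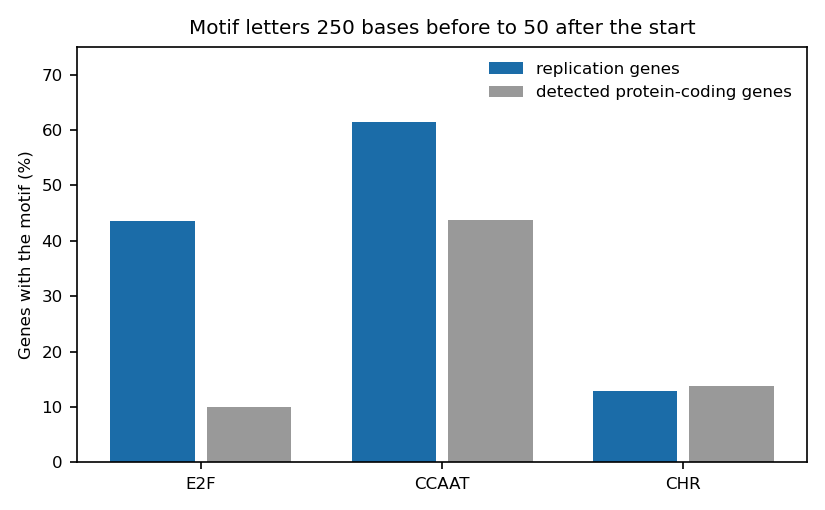
Share of genes (percent, vertical axis from 0) whose window of 250 bases before to 50 after the start holds the E2F, CCAAT or CHR letters, for the replication genes (blue, 39 genes) and all detected protein-coding genes (grey, 10082 genes). The E2F letters show the widest gap, at 43.6% of replication genes and 9.93% of detected genes, and the CHR letters are at 12.8% and 13.8%.

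Every member was detected and most were abundant. Levels are given in TPM, in which reads are divided by transcript length before scaling to the library, and which allow genes to be compared. All 47 members stood at 1 TPM or more in both libraries, against 60.0% of nuclear protein-coding genes. At 10 TPM or more in both libraries stood 45 members (95.7%), against 40.7% of those genes. At 100 TPM or more stood 20 members (42.6%), against 7.45%. The median member stood at 88.7 TPM (replicate 1) and 86.3 TPM (replicate 2), a mean of 87.5 ± 1.67 TPM (SD, n = 2), while the median of all nuclear protein-coding genes was 4.58 TPM and that of the 12867 detected ones 21.6 TPM. Of the members, 42 lay above the median of the detected genes and 10 in the top 5% of all protein-coding genes. Summed, they held 4781 TPM (replicate 1) and 4725 TPM (replicate 2), which is 0.600% and 0.590% of protein-coding TPM. In a bulk tissue, fewer cells of a type and less RNA per cell cannot be told apart, so these levels are averages over cycling and non-cycling cells.

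**Figure D2:**
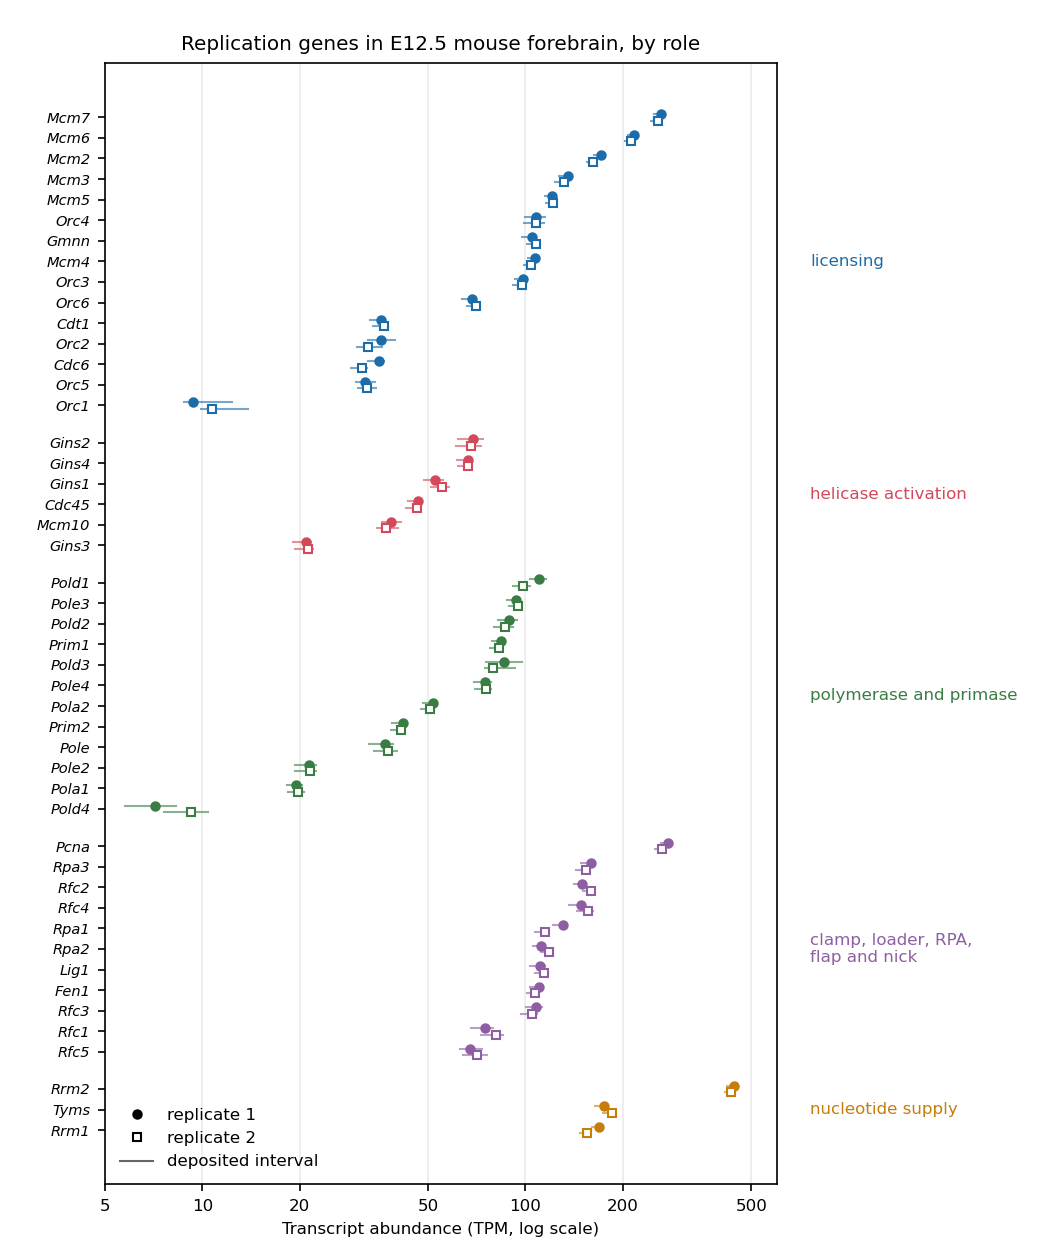
Abundance of the 47 replication genes in TPM (log scale), grouped by role and ordered within it by mean level. Filled circles are replicate 1, open squares replicate 2, and lines the deposited intervals. The intervals belong to the posterior mean and so need not be centred on the TPM or contain it, as for Mcm2 in both libraries. Rrm2 stands highest at 440.1 and 433.0 TPM, and Pold4 and Orc1 stand lowest, near 10 TPM.

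The roles differed in median level. The 3 nucleotide supply genes had a median of 180.5 TPM, the 11 genes of the clamp, loader, RPA and strand joining 114.9 TPM, the 15 licensing genes 105.6 TPM, the 12 polymerase and primase genes 63.2 TPM and the 6 helicase activation genes 50.1 TPM. These are medians of the mean level of each gene, and the highest of them was 3.60 times the lowest. The ranges overlapped widely, since licensing genes alone ran from 10.1 TPM for Orc1 to 260.6 TPM for Mcm7. In the polymerase and primase role and the helicase activation role 0 members reached 100 TPM in both libraries, whereas 8 licensing genes, 9 genes of the clamp group and all 3 nucleotide supply genes did. Counting only transcripts with an entry in the consensus coding sequence (CCDS) set, the licensing median was 69.5 TPM and that of the clamp group 108.5 TPM over 9 genes, since Rfc1 and Lig1 have no CCDS value here. The nucleotide supply median of 180.5 TPM was the level of Tyms, which fell to 19.6 TPM over CCDS transcripts. The CCDS median of that role was 161.7 TPM.

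Among licensing factors the MCM2-7 helicase held the 5 highest levels. Mcm7 (ENSMUSG00000029730, chromosome 5, 138164583 to 138172422, minus strand, GRCm38) measured 263.3 TPM (replicate 1) and 257.9 TPM (replicate 2). Mcm6 measured 216.4 and 211.6 TPM, and Mcm2 170.9 and 162.3 TPM. Both libraries placed the subunits in the same order, with Mcm3, Mcm5 and Mcm4 below these. Mcm3 had 135.4 and 131.9 TPM, Mcm5 121.1 and 121.9 TPM, and Mcm4 107.2 and 104.0 TPM. The protein complex holds 1 copy of each subunit, but Mcm7 RNA was 2.47 ± 0.0177 times Mcm4 RNA (SD, n = 2), and all 15 pairs of subunits lay apart. A pair was called apart where both libraries gave the same direction and the gap on log2(TPM + 1) exceeded the larger difference of either gene between the libraries. By this rule 91.7% of all pairs of detected protein-coding genes lay apart, so counts of pairs apart here and below are not results about a complex. No such share was computed for CCDS transcripts. With CCDS transcripts alone, Mcm6 was the highest, at 2.02 ± 0.00522 times Mcm4, and Mcm7 stood at 1.68 ± 0.00851 times Mcm4. In that count 13 of the 15 pairs lay apart. Mcm2 and Mcm7 did not, nor did Mcm3 and Mcm4.

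The origin recognition complex was far less even. Orc1 (ENSMUSG00000028587, chromosome 4, 108579423 to 108614833, plus strand, GRCm38), the subunit whose level is regulated through the cell cycle in human cells, was the lowest licensing gene at 9.36 TPM (replicate 1) and 10.8 TPM (replicate 2). Orc4 measured 107.4 and 107.9 TPM and Orc3 98.3 and 97.5 TPM. Orc4 therefore stood at 10.8 ± 1.02 times Orc1 (SD, n = 2). Between them, Orc6, which helps to recruit MCM proteins in yeast, measured 68.5 and 70.4 TPM, Orc2 35.7 and 32.6 TPM, and Orc5 32.0 and 32.4 TPM. Orc2 and Orc5 did not lie apart, and the other 14 pairs did. The positions of Orc4 and Orc3 depended on which transcripts were counted. With CCDS transcripts alone Orc6 was the highest subunit, at 8.16 ± 0.285 times Orc1, and Orc4 stood at only 2.68 ± 0.0343 times Orc1. Orc3 stood at 6.51 ± 0.381 times Orc1 over CCDS transcripts and 9.79 ± 1.01 times over all transcripts.

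The MCM loaders and their inhibitor followed. Cdc6, the ATPase that joins ORC, measured 35.3 TPM (replicate 1) and 31.2 TPM (replicate 2), and Cdt1, which brings MCM2-7 to it, 35.8 and 36.5 TPM. On the log2(TPM + 1) scale Cdt1 exceeded Cdc6 by 0.02 (replicate 1) and 0.22 (replicate 2), while Cdc6 itself differed by 0.17 between the pools, so the gap fell short in replicate 1 and the pair was not apart. Gmnn, which encodes geminin, measured 104.7 and 108.1 TPM, 2.94 ± 0.0226 times the Cdt1 level (SD, n = 2).

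Helicase activation genes were lower than the helicase itself. Cdc45, the partner of MCM2-7 and GINS in the active helicase, measured 46.7 TPM (replicate 1) and 46.1 TPM (replicate 2), and Mcm10, which acts at the step of helicase activation, 38.4 and 37.1 TPM. Mcm2 stood at 3.59 ± 0.101 times Cdc45 and at 4.42 ± 0.0555 times Mcm10 (SD, n = 2). Within GINS, a complex of 4 small subunits, Gins2 measured 68.9 and 68.0 TPM, Gins4 66.3 and 66.4 TPM, Gins1 52.6 and 55.1 TPM, and Gins3 20.9 and 21.2 TPM. All 6 pairs lay apart, with Gins3 the lowest in both libraries. The ratio of Gins2 to Gins3 was 3.25 ± 0.0666 over all transcripts and 1.09 ± 0.0292 over CCDS transcripts, while that of Gins4 to Gins3 was 3.15 ± 0.0305 under both.

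Among the polymerases, the catalytic subunits were not uniformly the highest or the lowest. In polymerase alpha-primase, Pola1, the DNA polymerase subunit, was lowest at 19.4 TPM (replicate 1) and 19.7 TPM (replicate 2), and Prim1, the catalytic primase, highest at 83.9 and 82.8 TPM. The accessory subunit Pola2 measured 51.8 and 50.6 TPM, and Prim2, the large primase subunit, 41.7 and 41.2 TPM. Prim1 stood at 4.26 ± 0.0869 times Pola1 and at 2.01 ± 0.00589 times Prim2 (SD, n = 2).

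In polymerase epsilon the histone-fold subunits Pole3 and Pole4 exceeded the catalytic subunit Pole. Pole3 measured 93.2 TPM (replicate 1) and 94.6 TPM (replicate 2), and Pole4 75.1 and 75.2 TPM. Pole measured 36.7 and 37.5 TPM, and Pole2 21.5 TPM in each library. Pole3 and Pole4 proteins also act in chromatin complexes outside the polymerase. Pole3 stood at 2.53 ± 0.0157 times Pole over all transcripts and 5.85 ± 0.429 times over CCDS transcripts (SD, n = 2). With CCDS transcripts alone, Pole was the lowest subunit in place of Pole2, at 16.1 TPM (replicate 1) and 14.5 TPM (replicate 2). Pole2 stayed at 21.5 TPM in each library, and the pair lay apart under both counts.

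In polymerase delta 3 subunits were close and the fourth was scarce. The catalytic subunit Pold1 measured 109.9 TPM (replicate 1) and 98.1 TPM (replicate 2), Pold2 88.7 and 86.3 TPM, and Pold3 85.6 and 79.2 TPM. Pold4 (ENSMUSG00000024854, chromosome 19, 4231899 to 4233634, plus strand, GRCm38), the smallest subunit, whose protein is degraded after DNA damage in human cells, was the least abundant of all 47 members at 7.16 and 9.23 TPM. Pold1 stood at 13.0 ± 3.34 times Pold4, with 15.3 in replicate 1 and 10.6 in replicate 2. Pold4 rested on 117 and 157 reads, the lowest counts of any member, and Pold2 and Pold3 did not lie apart. With CCDS transcripts alone, Pold1 stood at 8.25 ± 1.97 times Pold4 and Pold2 at 9.31 ± 1.64 times, and Pold1 and Pold2 did not lie apart. Between the leading-strand and lagging-strand catalytic subunits, Pold1 stood at 2.81 ± 0.271 times Pole over all transcripts and 4.33 ± 0.0465 times over CCDS transcripts.

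Pcna, the sliding clamp, was the most abundant replication gene after Rrm2, at 277.0 TPM (replicate 1) and 265.3 TPM (replicate 2). The clamp protein is a trimer, and the RFC loader that opens it has 5 different subunits. Rfc2 measured 149.6 and 159.3 TPM, Rfc4 148.2 and 156.6 TPM, Rfc3 107.9 and 104.4 TPM, Rfc1 75.1 and 81.0 TPM, and Rfc5 67.3 and 70.9 TPM. Rfc2 and Rfc4 did not lie apart, whereas the other 9 pairs did. Pcna stood at 3.48 ± 0.289 times Rfc1, the large subunit that is specific to this loader, and Rfc2 stood at 2.24 ± 0.0182 times Rfc5 (SD, n = 2). For Rfc1, 56.2% of TPM was in transcripts under 1000 bases, and there is no CCDS value to set beside its level or the ratio of Pcna to it. With CCDS transcripts alone, Rfc2 and Rfc4 lay apart, and Rfc2 stood at 2.79 ± 0.0688 times Rfc5.

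The 3 subunits of RPA, the single-strand binding complex, had the smallest spread of the 9 complexes over all transcripts. Rpa3 measured 159.9 TPM (replicate 1) and 153.9 TPM (replicate 2), Rpa1 130.5 and 114.8 TPM, and Rpa2 111.8 and 117.9 TPM. The order of Rpa1 and Rpa2 changed between the libraries, and the highest subunit stood at 1.39 ± 0.0630 times the lowest (SD, n = 2). With CCDS transcripts alone this spread was 2.08 ± 0.0131, from Rpa3 to Rpa1, and was no longer the smallest. That of MCM2-7 was 2.02 ± 0.00522. The complexes hold 2 to 6 subunits, and the spreads were not adjusted for that number. Fen1, the nuclease that trims flaps from lagging-strand fragments, measured 109.9 and 107.1 TPM, and Lig1, the ligase that seals them, 110.9 and 114.0 TPM. They did not lie apart.

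The nucleotide supply genes stood high. Rrm2 (ENSMUSG00000020649, chromosome 12, 24708241 to 24714146, plus strand, GRCm38), the small subunit of ribonucleotide reductase, was the most abundant member at 440.1 TPM (replicate 1) and 433.0 TPM (replicate 2). Rrm1, the large subunit, measured 168.8 and 154.6 TPM. The subunits pair in the enzyme, and Rrm2 RNA was 2.70 ± 0.137 times Rrm1 RNA, or 2.56 ± 0.122 times with CCDS transcripts (SD, n = 2). Tyms, which encodes thymidylate synthase, measured 175.3 and 185.7 TPM, but little of this was in its coding transcript, as described further on. Over the 9 complexes, 64 of 68 pairs of subunits lay apart (94.1%), near the 91.7% of all pairs of detected protein-coding genes that did, so this share is not a result about the complexes.

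**Figure D3:**
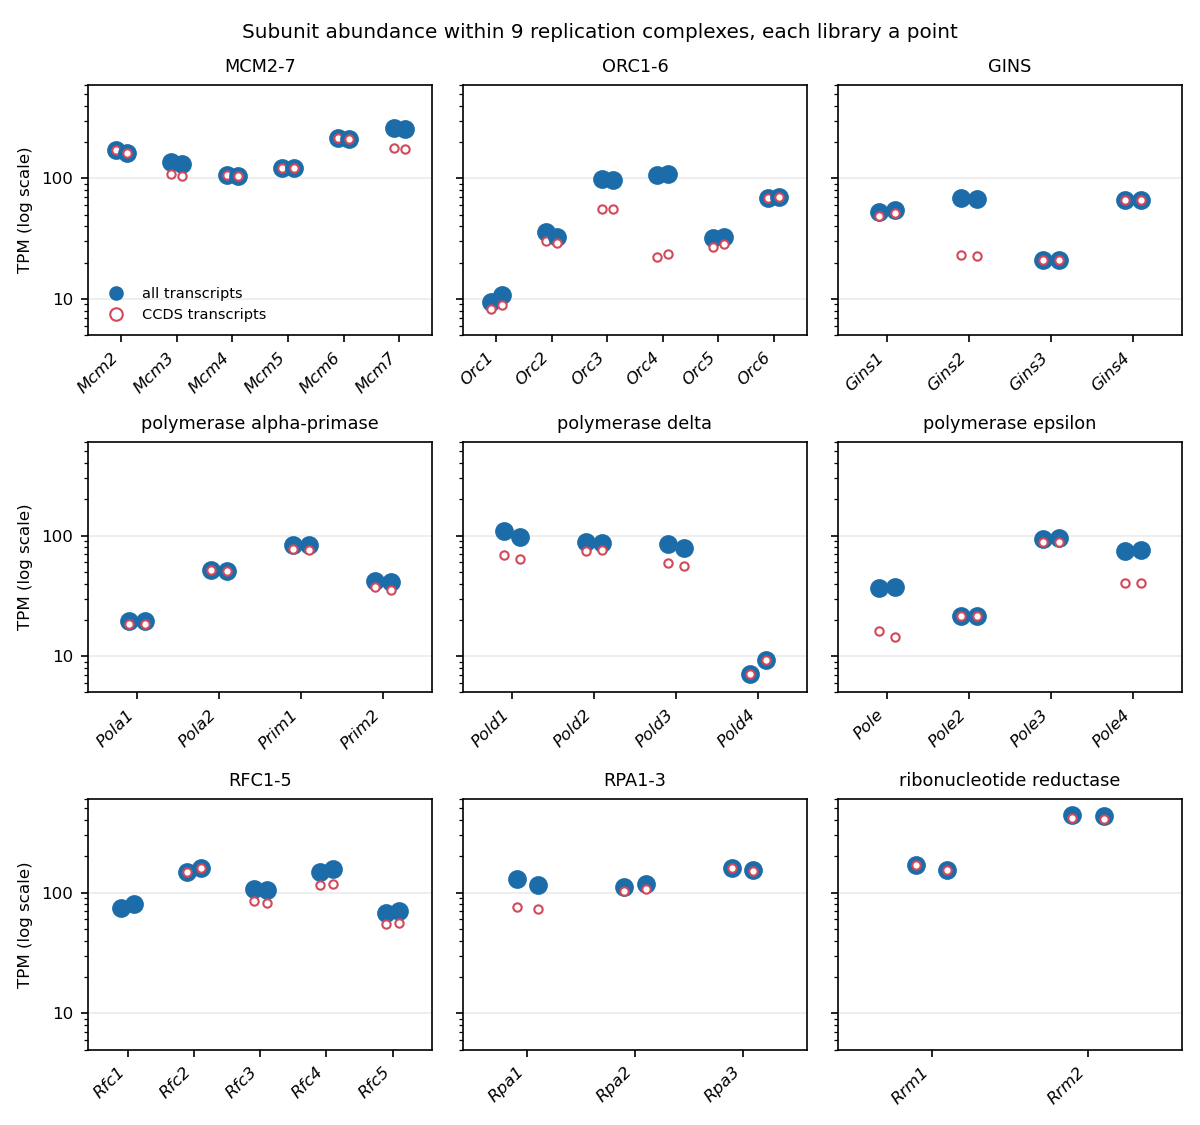
TPM (log scale) of each subunit in 9 complexes, with 1 point per library, replicate 1 left of replicate 2. Large filled points count all transcripts of a gene and small open points only CCDS transcripts, not shown for Rfc1. Orc1 and Pold4 lie far below their partners. Orc4, Gins2 and Pole drop most when only CCDS transcripts are counted, and Pole4, Orc3, Rpa1 and Pold1, among others, also drop.

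Gene levels include transcripts that are not annotated to encode the protein. Transcripts of the protein-coding class carried a median of 92.7% of TPM over 46 members, against 97.8% over 12794 detected protein-coding genes. Genes with over 50% of TPM in transcripts missing from the annotation used were left out. Pold1 and Pold3 had 8.32% and 3.74% in such transcripts, counted as not coding. They carried over 90% in 28 members (60.9%), against 64.9% of detected genes, and under 50% in 3 members (6.52%), against 7.84%. Both shares were near the background. All TPM, to 1 decimal of a percent, was in protein-coding transcripts in 15 members (32.6%), against 43.8% of detected genes. Transcripts with a retained intron carried over 10% in 14 members (30.4%), against 20.3% of detected genes.

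The 3 members under 50% were Tyms, Orc4 and Gins2. Tyms-201, the coding transcript of 3163 bases, carried 11.5% of Tyms TPM in replicate 1 and 10.2% in replicate 2, which is 20.2 and 19.0 TPM. Tyms-205, a transcript of 797 bases annotated for nonsense-mediated decay, carried 37.1% and 35.9%, and Tyms-202, of 816 bases with a retained intron, 33.6% and 34.0%. The pools placed the Tyms transcripts in the same order, and in replicate 1 the deposited intervals were 17.7 to 21.7 TPM for Tyms-201 and 57.9 to 69.0 TPM for Tyms-205. In reads Tyms-201 had the most of any single Tyms transcript, with 1249 and 1218 expected counts against 916 and 975 for Tyms-205. Tyms-202 had 850 and 949 expected counts. Tyms-206, a transcript of 2045 bases with a retained intron, had 926 and 1081, and its 23.6 and 26.5 TPM exceeded Tyms-201. Each of these had fewer reads than Tyms-201, but together they had more.

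Gins2-204, a fragment of 511 bases with a retained intron, carried 60.1% of Gins2 TPM in replicate 1 and 61.3% in replicate 2, and the coding Gins2-201, of 3900 bases, 33.7% and 33.4%. In reads the order was the opposite, with 344 and 360 expected counts for Gins2-204 and 1777 and 1809 for Gins2-201. For Orc4 the largest share was that of Orc4-212, a noncoding processed transcript, at 23.2% and 18.3%, and the coding Orc4-201 carried 15.9% and 16.1%. Orc4-201 had more reads, with 1365 and 1445 expected counts against 691 and 571 for Orc4-212. Rpa1-205, with a retained intron, carried 40.6% of Rpa1 TPM in replicate 1 and 35.2% in replicate 2, on 659 and 523 expected counts against 4301 and 4272 for the coding Rpa1-201. Pole4-203, a processed transcript, carried 41.3% and 41.7% of Pole4 TPM, on 495 and 521 expected counts against 1364 and 1427 for the coding Pole4-201. The deposited tables assign reads among overlapping transcripts by estimate, and these shares carry that error. For Rfc1, 88.8% of TPM was in transcripts whose identifiers are not in the annotation used for names, and it was left out of these shares.

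**Figure D4:**
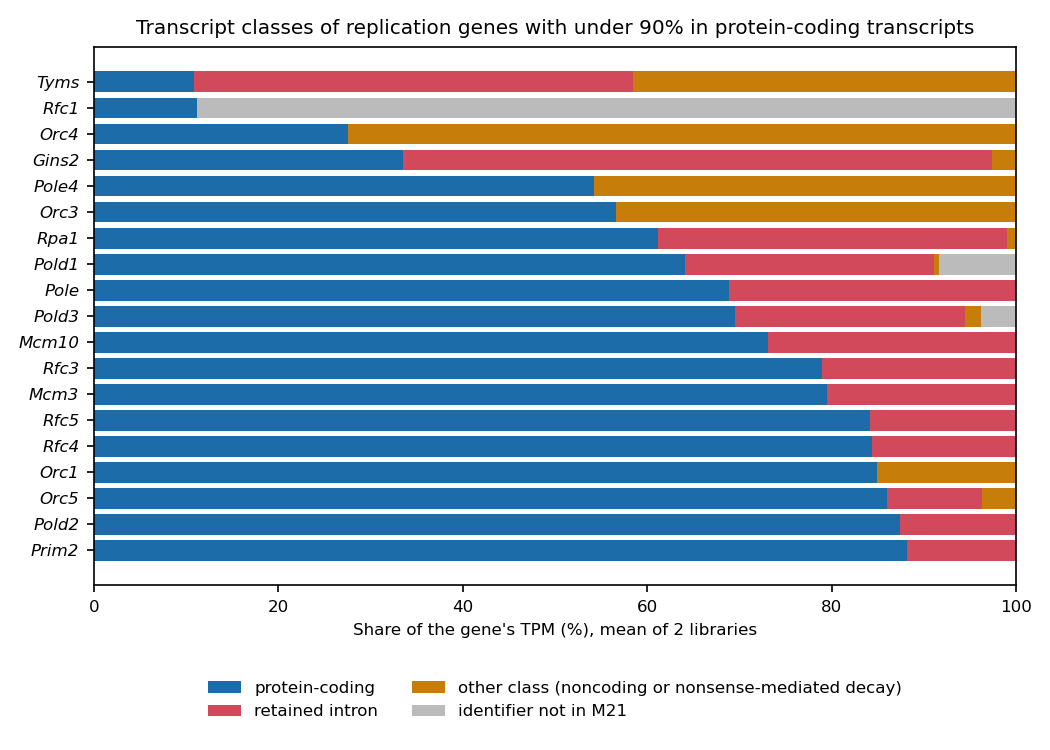
Share of each gene's TPM (percent, mean of 2 libraries) by annotated transcript class, for the replication genes with under 90% in protein-coding transcripts. Tyms, Orc4 and Gins2 have the smallest protein-coding shares apart from Rfc1. Grey marks transcripts with no entry in the annotation used for names, which make up most of Rfc1 and smaller parts of Pold1 and Pold3.

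The pools matched closely. The log2(TPM + 1) ratio of replicate 2 over replicate 1 had a median of -0.01 over members, against 0.00 over detected protein-coding genes, with 23 members higher in replicate 2 and 24 in replicate 1. It ran from -0.18 for Rpa1 to 0.33 for Pold4. Pold4 alone differed by more than a ratio of 5 to 4 on the TPM + 1 scale (2.13% of members), against 8.10% of detected genes, and its deposited intervals overlapped. In TPM, 5 members (10.6%) differed by over 10%, against 34.8% of detected genes. The median member level was 87.5 TPM and that of the detected genes 21.6 TPM. These shares were not matched for level, so they do not show that close agreement is particular to the members.

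The deposited intervals of the pools, which cover read assignment and counting error, did not overlap for 6 members (12.8%), against 15.2% of detected genes. Mcm2, Cdc6, Pold1, Rpa1 and Rrm1 were higher in replicate 1, and Rfc2 was higher in replicate 2. Some marker genes of cell types and regions differed more between the pools. The 5 erythroid markers summed to 6339 TPM (replicate 1) and 8618 TPM (replicate 2). Of the forebrain markers, Dlx1 measured 245.9 and 170.5 TPM, Dlx2 109.3 and 70.8 TPM, and Emx1 58.9 and 73.5 TPM. The part of these differences in the members' ratios was not tested. With 2 pools of 1 group no test between conditions is possible.

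**Figure D5:**
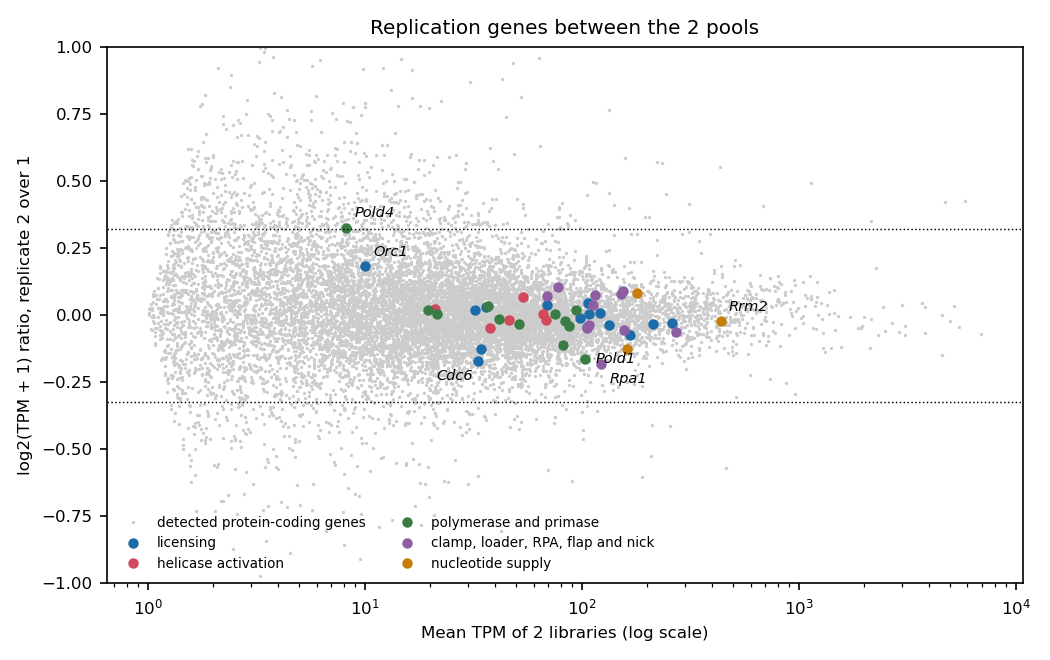
log2(TPM + 1) ratio of replicate 2 over replicate 1 (vertical axis) against mean TPM (log scale) for replication genes, coloured by role, and all detected protein-coding genes in grey. Dotted lines mark a ratio of 5 to 4 in either direction, and 21 grey genes beyond a log2 ratio of 1 in either direction are outside the axis. Only Pold4 among the replication genes lies past a dotted line.

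The libraries held 33711030 expected counts in replicate 1 and 34578499 in replicate 2. Members had 117 to 18292 reads each, and 3 counts, taken as the floor, were worth 0.0767 and 0.0720 TPM for the median member. All 6 forebrain markers passed 1 TPM in both pools, with sums of 709.7 and 642.9 TPM, and 0 of 4 hindbrain and spinal cord markers did, with sums of 0.04 TPM (replicate 1) and 0.30 TPM (replicate 2). The 4 cycling cell markers summed to 954.3 and 939.0 TPM, the 4 neuron markers to 1385 and 1287 TPM, and the 4 vessel and mesenchyme markers to 519.3 and 599.0 TPM.

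Some member levels can hold reads of other genes. For 33 members the deposited posterior SD of the count was 0 in both libraries, and for the other 14 it was at most 0.940% of the count. A protein-coding gene on the opposite strand overlapped 11 members, and no source states that counting used strand. Mcm7 overlaps Cops6, at 224.5 TPM (replicate 1) and 232.7 TPM (replicate 2), and Fen1 overlaps Tmem258, at 276.3 and 293.6 TPM. Mcm7 also hosts the microRNA genes Mir25, Mir93 and Mir106b, which are listed at 0 in these libraries of longer RNA. Neither the posterior SD nor the opposite-strand overlap was counted over all protein-coding genes. The 2 member counts therefore do not show that either feature is particular to the members.

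The members lie on 14 chromosomes. Chromosome 5 holds 8 of them (17.0%), against 5.71% of protein-coding genes, and chromosome 8 holds 6 (12.8%), against 4.75%.

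The wider replication network was also expressed. Of all nuclear protein-coding genes, 60.0% passed 1 TPM, 40.7% passed 10 TPM and 7.45% passed 100 TPM in both libraries. No list was tested against these shares. All 9 genes listed for origin firing and related steps, such as the kinase pair Cdc7 and Dbf4, passed 1 TPM in both libraries. Of these, 7 passed 10 TPM in both libraries, and the median was 36.4 TPM. Topbp1, a scaffold of origin firing and checkpoint signalling, was highest at 77.9 TPM (replicate 1) and 76.7 TPM (replicate 2), followed by the MCM-binding protein gene Mcmbp at 68.2 and 60.5 TPM, and Ticrr was lowest at 8.63 and 8.33 TPM. All 13 fork protection genes passed 10 TPM, with a median of 61.8 TPM, Tipin highest at 170.2 and 173.5 TPM, then Rnaseh2c at 151.1 and 126.5 TPM, and Atad5 lowest at 16.5 and 16.1 TPM.

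All 10 genes of chromatin assembly and maintenance passed 10 TPM, against 40.7% of nuclear protein-coding genes, with a median of 77.7 TPM. The FACT subunit gene Ssrp1 was highest at 262.7 TPM (replicate 1) and 253.8 TPM (replicate 2), then Pclaf, whose protein binds PCNA, at 183.9 and 186.2 TPM, and Chaf1a was lowest at 48.0 and 43.1 TPM. Of 12 other nucleotide enzymes, 11 passed 10 TPM and 6 passed 100 TPM, against 40.7% and 7.45% of nuclear protein-coding genes. Their median was 100.3 TPM. Dtymk, the thymidylate kinase, and Dut, which removes dUTP, led them at means of 200.8 and 184.4 TPM, and Rrm2b, the small reductase subunit used outside S phase, was lowest at 6.98 TPM. Polymerases and ligases of repair and bypass had a lower median, 11.6 TPM, against 21.6 TPM over detected protein-coding genes. Of these polymerases and ligases, 7 of 11 passed 10 TPM, against 40.7% of nuclear protein-coding genes. The base excision polymerase gene Polb led them at 79.4 TPM (replicate 1) and 75.6 TPM (replicate 2), then Mad2l2 at 67.3 and 63.0 TPM, and the bypass polymerase gene Polk was lowest at 5.80 and 5.60 TPM. Among 5 relatives of members with meiotic, germline or ciliated cell roles, 4 passed 1 TPM and 1 passed 10 TPM. The shares of nuclear protein-coding genes were 60.0% and 40.7%. The median of the 5 relatives was 2.64 TPM. Mcm8 was highest of these at 16.9 and 19.3 TPM, then Mcm9 at 4.63 and 5.33 TPM, and Gmnc was lowest at 0.510 and 0.740 TPM.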

How the data were processed

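Per the file headers, the authors quantified each replicate alone from its transcriptome alignments, with GENCODE M4 on the mouse genome GRCm38 (mm10). No aligner or quantifier is named in the sources read, and the tables have the columns of RSEM output. The deposited expected counts are estimated reads per gene. The deposited TPM count spike-ins and all other features in their scale. The deposited intervals belong to the posterior mean TPM, at a level the sources do not state, and like a floor of 3 counts they cover counting and assignment error only, because reads lacking molecular identifiers can be copies of 1 molecule. Transcript shares are the percent of a gene's TPM, deposited per transcript.

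GENCODE M21, also on GRCm38, gave symbols, positions and transcript classes, matched by identifier without version. Means and SDs are over the 2 replicates. Detection was at 1 TPM in both libraries, and a pseudocount of 1 TPM was used on the log2 scale. Promoter windows were read from a RefSeq table. The members, lists and thresholds were chosen with earlier results of these data known, and no list was tested. All members are named, and of each wider list the 2 highest and the lowest. As alternatives, expected counts were rounded and scaled with edgeR 4.0.16 (TMM) and DESeq2 1.42.0 in R 4.3.3, and the steps were tested on simulated data. Other steps used Python 3.11.15, numpy 2.4.6, pandas 2.3.3 and matplotlib 3.10.9.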

Additional observations from a re-analysis of the deposited data

How the results depend on the processing

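With 1 group of 2 pools, the spread rests on 1 difference per gene, and no condition can be compared. No paired analysis was possible because the series has 1 group only. The counts of members at 1 TPM and at 10 TPM, of pairs apart, of members past a ratio of 5 to 4 and of the wider list genes at 10 TPM stayed within 1.5 times under every alternative run. The median member level of 87.5 TPM was 109.4 TPM relative to protein-coding genes, 66.5 TPM over protein-coding transcripts and 66.2 TPM over CCDS transcripts, an alternative chosen after seeing the transcript shares. The fold between the highest and lowest role medians, 3.60, was 4.37 and 4.38 with those 2 transcript sets. The median ratio between pools, -0.0112 on the log2 scale, was -0.0129 with posterior mean TPM, -0.0185 relative to protein-coding genes, -0.0199 and -0.0257 with the 2 transcript sets, -0.0113 with a pseudocount of 0.1, and -0.0109 and -0.0108 with TMM and DESeq2 scaling. The median coding share was 92.8% and 93.3% in single replicates, against 92.7%. In windows of 100 bases before to 50 after the start, the E2F letters were in 35.9% of members and 5.42% of detected genes, against 43.6% and 9.93% in the longer windows. Pair calls and ratios between pools cannot be had from 1 replicate. A planned search for a PCNA-binding motif in the proteins was not run.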
